A study of Brassica napus with 12 samples.

Results

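New genes were transcripts of rapeseed, *Brassica napus*, whose identifiers have the form Brassica_napus_newGene_number, in contrast to those that name an A chromosome, a C chromosome or a scaffold. A new gene was included when it reached 1 RPKM (reads scaled to gene length and to the mapped reads of the library) in at least 3 of 12 libraries. Of 8695 new genes in the table, 3583 did so, and they made up 6.24% of the 57391 genes that passed. They are compared with 52294 genes on A or C chromosomes that passed the same filter, called A and C genes here. RNA with poly(A) tails was sequenced from seedlings about a week after sowing, when the cotyledons had opened and the first true leaf was forming. A resistant and a susceptible pool were each made by mixing 5 germplasm in equal amounts. Seedlings of each were taken either under normal growth or after 24 h fully under distilled water, which gave 4 groups of 3 biological replicates. A replicate is therefore a mixture of seedlings, and neither whole-seedling RNA nor a pool resolves cell types or single germplasm.

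In transcript assembly, a gene is usually called new when reads form a transcript outside the genes of the reference annotation; how it was done here is not given in the sources used here. Such transcripts may be protein-coding genes that the annotation missed, long noncoding RNAs, transposon-derived RNAs, or pieces and extensions of neighbouring genes. Rapeseed is an allotetraploid with an A and a C subgenome, and its cultivars are known to differ in which genes they carry. Submergence cuts off oxygen and light; plants are known to answer by raising fermentation and sugar breakdown and lowering costly processes such as growth and ribosome production. No identifier of a new gene matched the reference table of rapeseed genes (0 of 8695), but neither did any other identifier (0 of all 109614). The lack of a match is therefore not particular to new genes. Neither position, strand, length nor sequence was paired with new genes in the sources used here. The genes are therefore given by identifier, shortened to newGene_number after first use, with no role, and whether any of them overlaps an annotated gene and shares its reads was not tested.

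Relative to the first resistant control, the deepest library, depth ranged from 0.638 to 1, as judged from the spacing of the lowest values of genes that are not new. Absolute depth is unknown. On new genes alone, the correlation of log2 levels between libraries had a median of 0.956 for libraries of a group, 0.874 for a like treatment in different pools and 0.861 for a like pool under different treatments. For A and C genes the medians were 0.965, 0.928 and 0.873. These are correlations across genes, which are not independent replicates.

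The numbers in the identifiers ran from 1 to 13633, and 8695 of them were in the table. None of the new genes was listed at 0 in all 12 libraries, whereas 20.6% of the A and C genes were. How the rows of new genes arose is not given, so whether a row at 0 throughout was possible is unknown. Of the 5112 new genes that did not pass the filter, 4396 never reached 1 RPKM and 716 reached it in 1 or 2 libraries; none of the 5112 reached 5 RPKM in any library. The share that passed was 41.2%, against 54.0% of A and C genes. At the boundary, the value that decides inclusion, that of the library ranked 3 from the top, was 1.000022 RPKM in Brassica_napus_newGene_12619 and 1.000097 in Brassica_napus_newGene_10878, which were included. It was 0.999986 in Brassica_napus_newGene_9496 and 0.999894 in Brassica_napus_newGene_11693, which were not.

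Expression of the included new genes was low and often close to the filter. Their mean over the 12 libraries had a median of 2.46 RPKM, with 25% below 1.20 and 25% above 6.48, while the A and C genes had a median of 5.53 RPKM, with quartiles of 2.38 and 13.3. A mean under 2 RPKM was found for 1539 new genes, 43.0% of them, against 20.7% of A and C genes. Accordingly, 1765 new genes, or 49.3%, were at 1 RPKM or more in all 12 libraries, against 75.1% of A and C genes. A further 1001 new genes, or 27.9%, were at that level in 3 to 6 libraries only, against 10.2%. Some of these passed through the samples of a single pool or treatment: 271 reached 1 RPKM in resistant libraries alone, 194 in susceptible, 329 in control and 64 in submerged libraries alone. In percent this was 7.56, 5.41, 9.18 and 1.79, compared with 1.67, 1.02, 3.74 and 1.16 of A and C genes. Genes that pass in this way are selected for a difference between groups, so counts of calls over the included genes cannot be read as a share of all new genes.

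A few new genes were very abundant. The mean of 55 of them was 100 RPKM or more, and the 36 highest, 1% of the total, held 33.3% of the summed RPKM of new genes; for A and C genes the highest 1% held 22.2%. Of the 100 most abundant genes of all kinds, 7 were new genes, and of the 1000 most abundant, 54 were. The highest was Brassica_napus_newGene_2906, number 21 of all genes by mean level, at 1328, 868 and 1024 RPKM in resistant controls and 387, 457 and 515 RPKM after submergence. In the susceptible pool it stood at 1032, 899 and 1384 RPKM in controls and at 566, 770 and 634 RPKM after submergence. The submerged libraries were below all controls in both pools. Its log2 change on the log2(RPKM + 1) scale was -1.23 ± 0.22 for resistant seedlings (SE; limma adjusted p = 0.00134) and -0.74 ± 0.22 for susceptible seedlings (SE; limma adjusted p = 0.0198).

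The next most abundant new genes were also lower after submergence in both pools. Brassica_napus_newGene_15 averaged 1003 ± 81.1 and then 275 ± 32.0 RPKM in the resistant pool, and 1273 ± 259 and then 507 ± 48.8 RPKM in the susceptible one (SD, n = 3), with adjusted p = 1.86e-05 and 0.0002 by limma. Brassica_napus_newGene_1382 averaged 1232 ± 366 and then 356 ± 138 RPKM, and 1247 ± 481 and then 167 ± 77.2 RPKM (SD, n = 3), with adjusted p = 0.00327 and 0.000168 by limma. Brassica_napus_newGene_2119 averaged 1017 ± 138 and then 423 ± 37.8 RPKM, and 715 ± 60.6 and then 488 ± 55.8 RPKM (SD, n = 3), with adjusted p = 0.000151 and 0.0178 by limma. Under median ratio scaling, which divides each library by its median ratio to the average library, the calls in the susceptible pool were lost for newGene_2906 (log2 change -0.46; limma adjusted p = 0.128) and for newGene_2119 (-0.27; limma adjusted p = 0.214). Both were also lost without the first susceptible submerged library, at limma adjusted p = 0.077 and 0.0789. That of newGene_2906 was lost without the third susceptible control as well (0.0715), and that of newGene_2119 without the first (0.0551). Neither was called with no filter (0.113 and 0.131) or with only the groups compared in the fit (0.0986 and 0.116). Among the 55 new genes at 100 RPKM or more, 17 were called lower and 9 higher in both pools. Among the 1002 A and C genes at that level, 166 were called lower and 257 higher in both pools.

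Other new genes hardly varied. Among those with a mean of at least 5 RPKM, the 4 with the lowest SD of log2(RPKM + 1) over the 12 libraries were Brassica_napus_newGene_10538 (SD 0.0744), Brassica_napus_newGene_8381 (0.0849), Brassica_napus_newGene_12784 (0.0956) and Brassica_napus_newGene_1951 (0.0969). The first ranged from 5.08 to 6.34 RPKM and the next from 9.33 to 11.3 RPKM across both pools and treatments. They were chosen for this low spread, so it is given as a description.

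At 1 RPKM or more, fewer new genes were detected after submergence, and fewer in the susceptible than in the resistant pool. New genes at 1 RPKM or more numbered 3037, 3017 and 3043 in resistant controls and 2605, 2675 and 2686 in resistant submerged libraries. Susceptible seedlings had 2896, 2818 and 2835 such genes in controls and 2553, 2491 and 2535 after submergence. No 2 groups overlapped, with the resistant controls highest and the susceptible submerged libraries lowest. The mean difference between submerged and control libraries was -377 for the resistant pool and -323.3 for the susceptible pool, against a spread of 34.7 between replicates (SD). As a share of the included genes, detection went from 84.6% to 74.1% in resistant seedlings and from 79.5% to 70.5% in susceptible seedlings. For A and C genes these shares were 93.7% and 89.6%, and 92.0% and 86.4%. Genes near the filter cross it with small changes, and new genes lie nearer to it. The filter itself bears on these counts, as 329 new genes passed through control libraries alone and 64 through submerged libraries alone. Likewise, 271 passed through resistant and 194 through susceptible libraries alone. At 5 RPKM or more, the differences were -204.7 and -103.7 new genes, and after median ratio scaling, at 1 RPKM or more, -220 and -149. At 5 RPKM the resistant pool had more in controls (1162 to 1232 against 1073 to 1134). Submerged libraries of the pools overlapped there (959 to 1038 against 946 to 1041). At 20 RPKM or more, the pools overlapped under each treatment and the treatments in each pool. Means were then higher in the susceptible pool (313.3 against 294.7 in controls, 305.3 against 263 after submergence).

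The median level of new genes was 2.90 ± 0.0651 RPKM (SD, n = 3) in resistant controls and 2.14 ± 0.0581 after submergence, and 2.48 ± 0.107 and 1.97 ± 0.0495 in the susceptible pool. New genes held 4.55%, 4.78% and 4.77% of all RPKM in resistant controls and 3.91%, 3.91% and 3.99% in resistant submerged libraries. In susceptible controls the share was 4.94%, 4.69% and 4.74%, and after submergence 4.40%, 3.92% and 4.39%. The groups of a pool did not overlap. Without the 10 most abundant new genes the ranges were 3.73% to 4.12% and 3.33% to 3.43% in the resistant pool, and 3.89% to 4.15% and 3.31% to 3.80% in the susceptible pool. In bulk RNA, fewer cells that express a gene and less RNA of it per cell cannot be told apart.

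**Figure D1:**
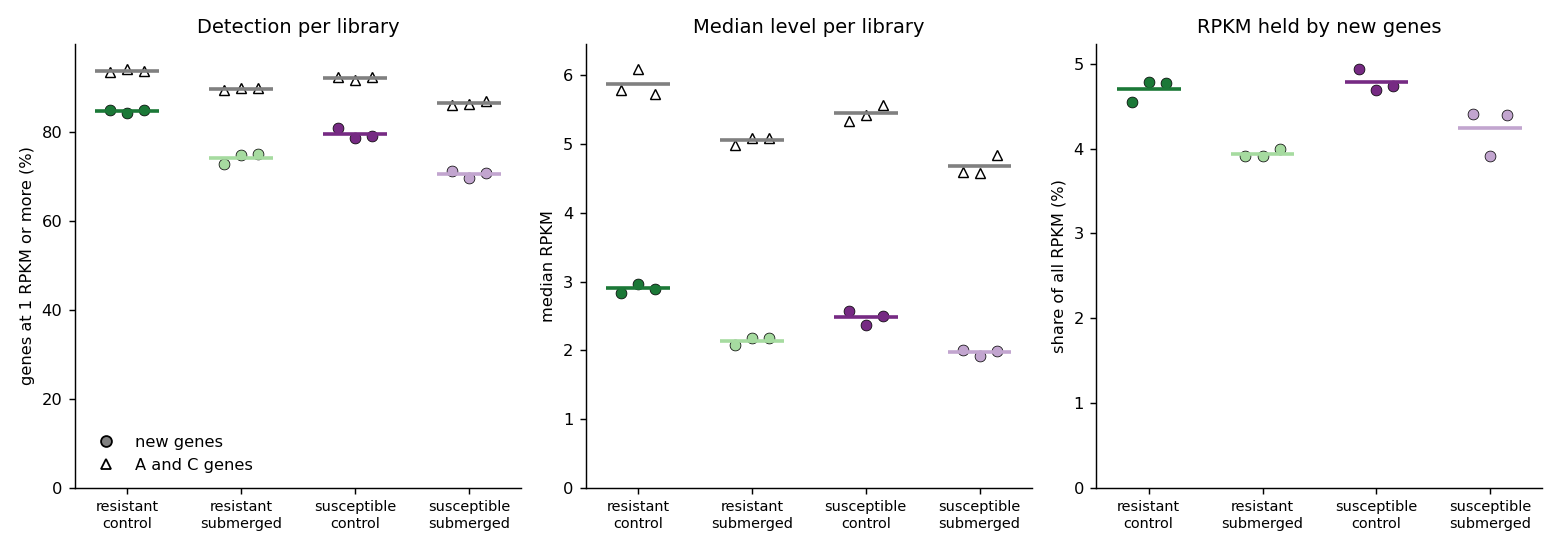
Each point is a library, in 4 groups of 3 on the horizontal axis, and bars are group means. The vertical axes show the share of filter-passing genes at 1 RPKM or more, the median RPKM and the share of all RPKM held by new genes; new genes (circles) lie below A and C genes (triangles) in detection and level, and submerged libraries below controls.

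Levels of the new genes separated all 4 groups, by pool about as much as by treatment. Over new genes, 40.9% of the variance lay on the first principal component and 30.4% on the second, and over A and C genes 51.5% and 21.2%. On the first, resistant controls lay between -31.5 and -29.9, susceptible controls between -8.66 and -0.687, resistant submerged libraries between 6.62 and 7.61 and susceptible submerged libraries between 27.3 and 28.6. Summed over new genes, treatment took 37.3% of the squared deviations on the log2 scale, pool 33.1%, their interaction 4.58% and replicates 25.0%. The same shares for A and C genes were 50.4%, 21.4%, 4.85% and 23.4%. Pool was the largest of the 4 parts for 1035 new genes, or 28.9%, and for 18.7% of A and C genes, while replicates were the largest for 32.9% and 33.0%. Genes that passed through a single pool add to the part of pool. These shares describe the libraries, and the difference between new genes and A and C genes was not tested.

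**Figure D2:**
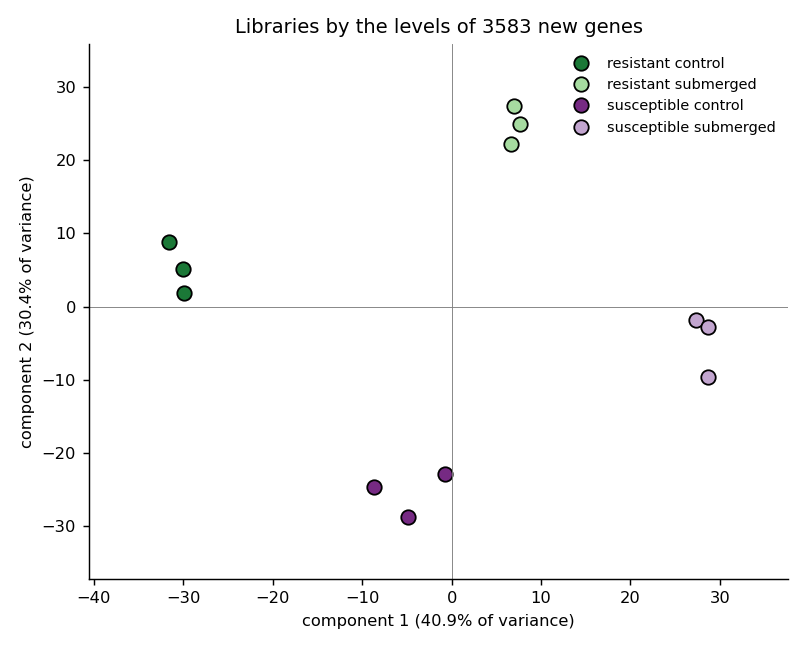
Each point is a library, placed by its first and second principal component (percent of variance on the axes) over log2(RPKM + 1) of the 3583 new genes, and coloured by group. The 4 groups form separate clusters, and neither component is that of treatment or pool alone.

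In the resistant pool, 1029 of the 3583 new genes fell and 295 rose after submergence (limma, adjusted p under 0.05). This is 28.7% lower, against a background of 26.7% of all genes tested, and 8.23% higher, against 11.9%. Of the A and C genes, 27.1% fell and 12.3% rose. A change of at least 2-fold was called for 259 lower and 142 higher new genes, or 7.23% and 3.96%, where the background was 5.81% and 5.74%. At least 8-fold changes were called for 16 lower and 12 higher of the 3583 new genes, and for 94 lower and 218 higher of all 57391 genes tested. The median log2 change of all new genes was -0.30, and that of A and C genes -0.21. With median ratio scaling 628 fell and 417 rose, and with quantile normalization 609 and 422, so rises made up 39.9% and 40.9% of calls in place of 22.3%; for A and C genes this share moved from 31.2% to 55.1% and 48.7%. The median change of all genes tested went from -0.22 to -0.04 and -0.07 under these scalings, and that of new genes to -0.13 and -0.12. Genes that passed the filter through control libraries alone, 9.18% of new and 3.74% of A and C genes, are selected for a fall. Those through submerged libraries alone were 1.79% and 1.16%. Without such scaling, 23.6% of new and 25.1% of A and C genes fell at a mean of 5 RPKM, and 17.6% and 19.6% with no filter. At 1 RPKM or more in all 12 libraries, 27.1% and 26.2% fell.

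The largest falls took new genes that were well expressed in controls nearly to 0. Brassica_napus_newGene_3264 stood at 95.9, 59.1 and 80.0 RPKM in resistant controls and at 0.809, 0.826 and 0.457 RPKM after submergence (log2 change -5.53 ± 0.37, SE; limma adjusted p = 1.95e-06). Brassica_napus_newGene_10565 stood at 58.4, 42.7 and 52.9 RPKM and at 0.256, 0.0935 and 0.241 RPKM (log2 change -5.44 ± 0.37, SE; limma adjusted p = 2.19e-06). In both genes every submerged library was under 1 RPKM. Among susceptible libraries newGene_3264 was at 54.6, 42.5 and 73.8 RPKM in controls and at 2.02, 5.83 and 1.07 RPKM after submergence.

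The largest rises began from almost no RNA in resistant controls. Brassica_napus_newGene_10906 stood at 0.0501, 0.156 and 0.185 RPKM in resistant controls and at 29.9, 30.9 and 27.9 RPKM after submergence (log2 change 4.76 ± 0.21, SE; limma adjusted p = 2.15e-07). Brassica_napus_newGene_10905, the preceding number, stood at 0.778, 0.528 and 0.143 RPKM and at 37.2, 24.2 and 37.6 RPKM (log2 change 4.52 ± 0.33, SE; limma adjusted p = 3.70e-06). Their levels correlated with r = 0.984 over the 12 libraries, which fall into separate groups, so this describes a shared pattern of groups. Susceptible seedlings had both genes in controls, newGene_10906 at 8.18, 4.45 and 10.4 RPKM and newGene_10905 at 7.19, 2.75 and 7.97 RPKM. After submergence they reached 48.4, 53.3 and 46.7 RPKM and 43.7, 62.6 and 35.4 RPKM.

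In the susceptible pool, 912 new genes fell and 311 rose (limma, adjusted p under 0.05). This is 25.5% lower, with a background of 28.6%, and 8.68% higher, with a background of 12%; of A and C genes, 29.4% fell and 12.5% rose. Changes of at least 2-fold were called for 231 lower new genes, or 6.45% (background 6.35%), and 153 higher, or 4.27% (background 5.83%). The median log2 change was -0.19 for new genes and for A and C genes. With median ratio scaling 587 fell and 494 rose, and with quantile normalization 533 and 465, so rises made up 45.7% and 46.6% of calls in place of 25.4%; for A and C genes they made up 54.1% and 45.9% in place of 29.8%. Rises were thus a smaller share of calls in new genes than in A and C genes with median ratio scaling, but not with quantile normalization. The median change of all genes tested went from -0.19 to 0.02 and -0.04.

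The largest fall in this pool was again that of newGene_10565, at 43.6, 27.0 and 63.6 RPKM in controls and 0.709, 2.56 and 0.183 RPKM after submergence (log2 change -4.48 ± 0.37, SE; limma adjusted p = 8.43e-06). Brassica_napus_newGene_5176 stood at 188, 237 and 228 RPKM in controls and at 6.13, 12.3 and 8.81 RPKM after submergence (log2 change -4.48 ± 0.24, SE; limma adjusted p = 8.20e-07). Its values in the resistant pool were close to these, 189, 153 and 163 RPKM in controls and 9.46, 5.09 and 7.43 RPKM under water. Of the rises, Brassica_napus_newGene_10087 went from 1.23, 1.501 and 0.681 RPKM to 20.03, 19.2 and 30.0 RPKM (log2 change 3.49 ± 0.24, SE; limma adjusted p = 2.98e-06). Brassica_napus_newGene_1397 went from 3.53, 3.25 and 1.44 RPKM to 36.7, 23.9 and 45.4 RPKM (log2 change 3.29 ± 0.28, SE; limma adjusted p = 1.00e-05). Both were also higher under water in every resistant library, newGene_10087 at 8.88, 11.2 and 17.0 RPKM against 0.547, 0.220 and 0.489, and newGene_1397 at 26.1, 27.9 and 37.3 RPKM against 3.00, 1.84 and 2.27.

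The same new genes were often called in both pools, which share no control library. The tests in both pools used the same spread per gene, estimated over all libraries, so their calls are not independent. Of the new genes that fell, 606 fell in both pools, or 58.9% of the falls of resistant and 66.4% of those of susceptible seedlings. The 186 that rose in both were 63.1% and 59.8% of the rises. For A and C genes, shared falls were 70.1% and 64.6%, and shared rises 73.2% and 72.3%. Of the 3583 new genes, 8 were called in opposite directions and 1836 in neither pool. Of the 52294 A and C genes, 71 were called in opposite directions and 24511 in neither pool. Over all 3583 new genes, r between the changes of either pool was 0.764, a description over genes that share libraries; for A and C genes r was 0.818.

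**Figure D3:**
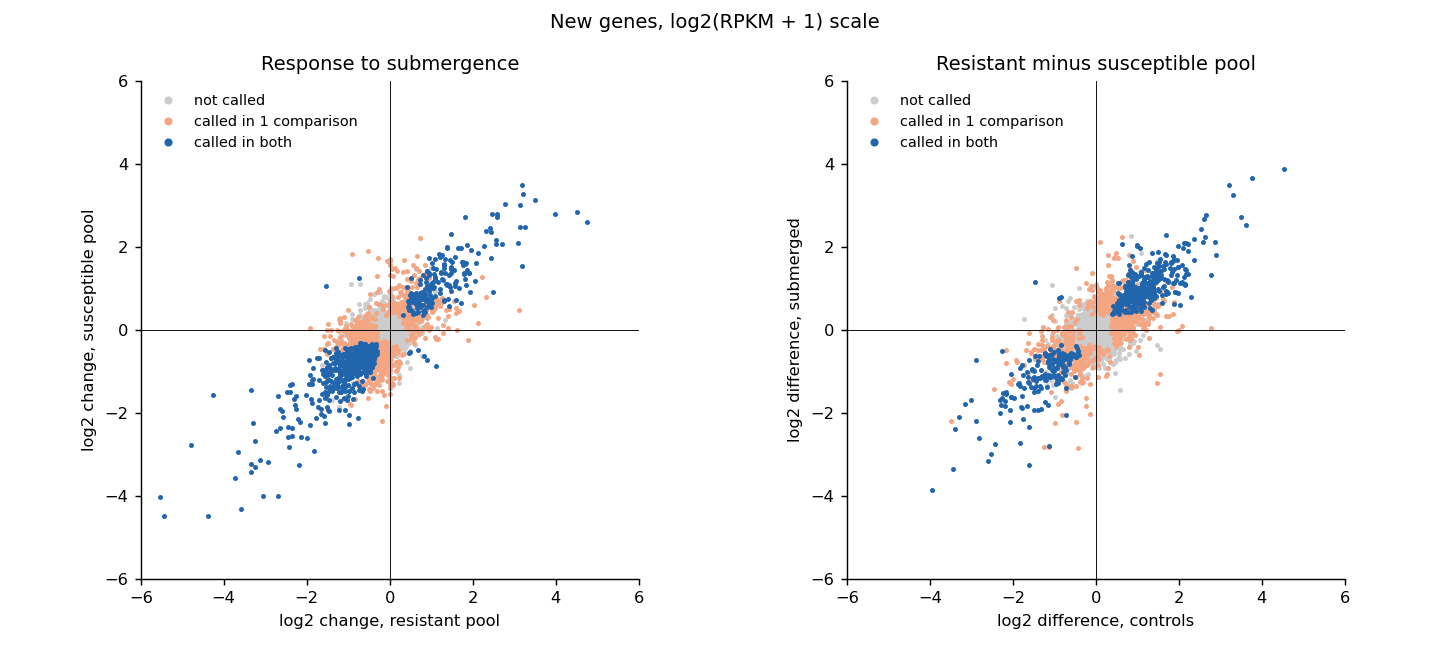
Each point is a new gene; the left panel sets the log2 change after submergence in the susceptible pool against that in the resistant pool, and the right panel the log2 difference between pools in submerged against that in control seedlings. Blue genes were called in both comparisons of a panel; most of them lie near the diagonal, and 8 and 3 were called in opposite directions.

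Differences between the pools were called for a larger share of new genes than of all genes tested, but the filter bears on this count. Before submergence, 641 new genes had more RNA in the resistant pool and 293 had less (limma, adjusted p under 0.05). This is 17.9% higher, where the background was 10.9%, and 8.18% lower, where it was 5.02%; for A and C genes it was 10.7% and 4.88%. Differences of at least 2-fold were called for 281 higher and 156 lower new genes, or 7.84% and 4.35%, where the background was 2.97% and 2.07%. With quantile normalization 515 were higher and 361 lower, and with median ratio scaling 506 and 327. Genes that reached 1 RPKM in a single pool had to differ between pools, and they were more frequent among new genes. Among the 3118 new genes and 50887 A and C genes that reached it in both pools, a split made after seeing the data, 13.1% of new genes were higher and 5.20% lower, against 9.84% and 4.45%. The median size of the log2 difference over all included genes, regardless of sign, was 0.342 in new genes and 0.248 in A and C genes, and the median SD between replicates was 0.240 and 0.206. The contrast was widest among weak genes. Under 2 RPKM on average, 31.5% of new genes and 16.4% of A and C genes were called, and from 2 to 5 RPKM 26.2% and 16.2%. From 5 to 20 RPKM the shares were 18.2% and 14.8%, and at 20 RPKM or more 19.0% and 15.1%, with 290 new genes in that class. Among genes at 1 RPKM or more in all 12 libraries, a filter added after seeing the data, 17.4% of new genes and 13.6% of A and C genes were called. Whether new genes and A and C genes of like level differ was not tested.

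After submergence, 524 new genes had more RNA in the resistant pool and 291 had less (limma, adjusted p under 0.05). This is 14.6% higher, with a background of 11.7%, and 8.12% lower, with a background of 4.67%; 11.8% and 4.52% of A and C genes were called. At least 2-fold differences were called for 206 higher and 124 lower new genes, or 5.75% and 3.46%, against a background of 2.77% and 1.61%. Among genes that reached 1 RPKM in both pools, 10.97% of new genes were higher and 5.39% lower, against 11.2% and 4.15% of A and C genes. By level, over all included genes, 26.1% of new genes and 16.2% of A and C genes were called under 2 RPKM, and 17.2% and 16.1% at 20 RPKM or more. With quantile normalization 399 were higher and 353 lower, and with median ratio scaling 443 and 373, which moved the share of calls that were higher from 64.3% to 53.1% and 54.3%. Without the third resistant submerged library there were 344 higher and 168 lower. The lower genes numbered 179 without the first and 187 without the second resistant submerged library, and 188 without the first susceptible submerged library.

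**Figure D4:**
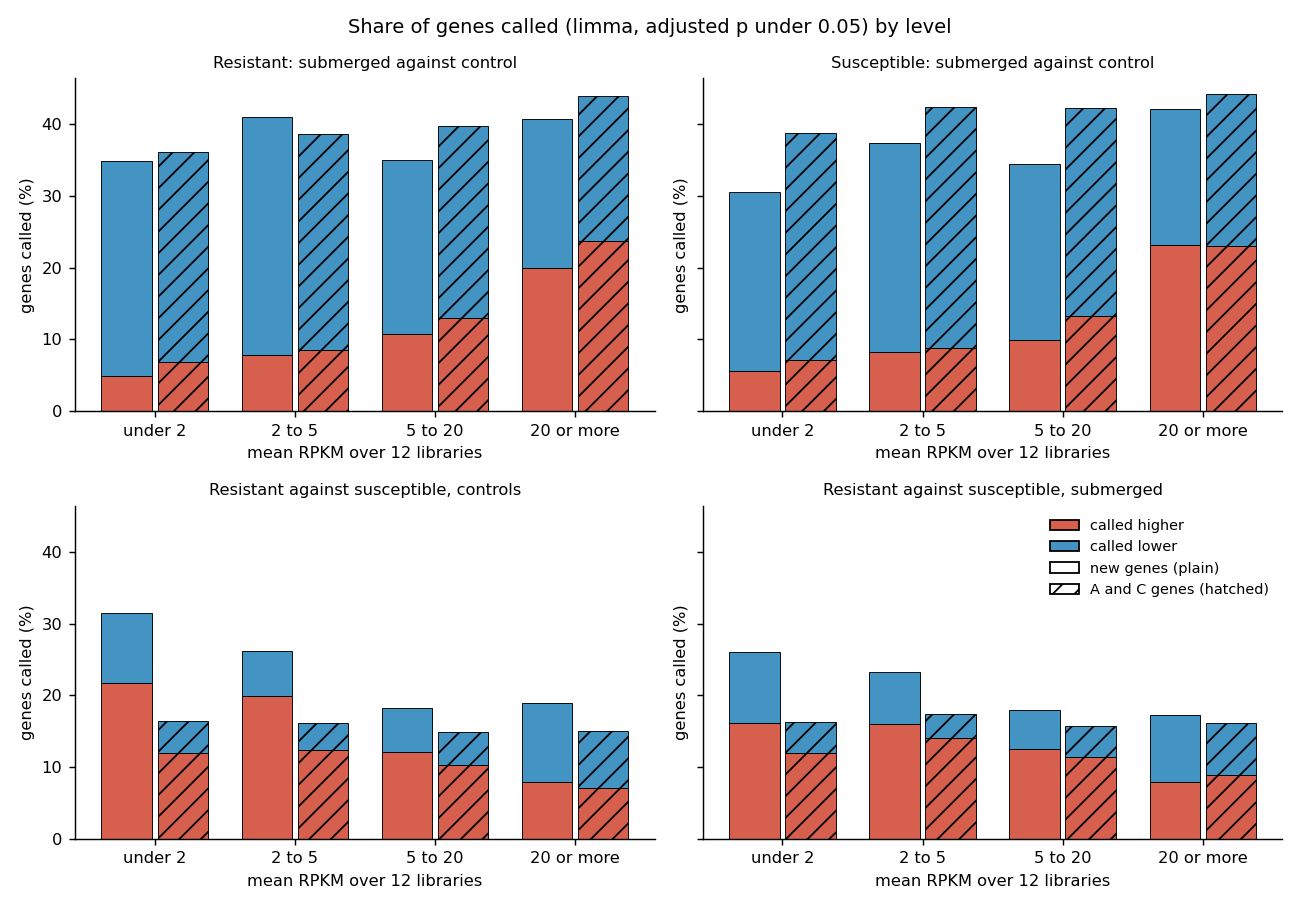
Bars give the percent of genes called by limma at an adjusted p under 0.05, higher (red) and lower (blue), in classes of mean RPKM over 12 libraries, for new genes (plain) and A and C genes (hatched). In the lower panels, which compare the pools, new genes under 5 RPKM are called more often than A and C genes; in the upper panels, which compare submergence with control, they are not consistently so.

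Some new genes were at or near 0 in a pool. Brassica_napus_newGene_3742 stood at 18.3, 26.7 and 28.7 RPKM in resistant controls and at 18.4, 11.9 and 13.6 RPKM in resistant submerged libraries. In the susceptible pool it was between 0 and 0.186 RPKM in all 6 libraries, and the log2 difference was 4.54 ± 0.18 in controls and 3.89 ± 0.18 after submergence (SE). Brassica_napus_newGene_2842 stood at 19.4, 12.8 and 14.0 RPKM in controls and at 10.53, 14.7 and 15.5 RPKM after submergence in the resistant pool. It was between 0.111 and 0.196 RPKM in susceptible libraries (log2 difference 3.77 ± 0.16 and 3.67 ± 0.16, SE). The pools did not overlap in either gene. Both passed the filter through resistant libraries only, so they had to differ between pools, and no p-value is given.

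The largest differences towards the susceptible pool were more variable between replicates. Brassica_napus_newGene_13415 stood at 29.1, 52.1 and 8.88 RPKM in susceptible controls and at 53.3, 5.28 and 90.05 RPKM after submergence, against at most 2.87 RPKM in the resistant libraries. The log2 difference was -3.96 ± 0.92 in controls and -3.86 ± 0.92 after submergence (SE; limma adjusted p = 0.0144 and 0.0169). The call in controls was lost without the first (limma adjusted p = 0.0528) or second (0.0552) susceptible control. That after submergence was lost without the third resistant submerged library (0.0683) or without the first (0.0638) or the third (0.0548) susceptible submerged library. Brassica_napus_newGene_3426 stood at 81.3, 54.0 and 65.5 RPKM in susceptible controls and at 0.165, 12.1 and 12.8 RPKM in resistant controls (log2 difference -3.50 ± 0.75, SE; limma adjusted p = 0.0103). Without the first resistant control the log2 difference was -2.32. After submergence it was -2.19 ± 0.75 (SE) and was not called, at an adjusted p of 0.0695 by limma.

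All 6 susceptible libraries were at 0 for 41 new genes and all 6 resistant ones for 30, or 1.14% and 0.837%. The same pattern was found for 0.168% and 0.119% of A and C genes. A gene that passed the filter and is at 0 in a whole pool must have passed through the other pool. With no counts in the table, how low a level a listed 0 allows is unknown. Brassica_napus_newGene_4848 was listed at 0 in all 6 resistant libraries and stood at 10.8, 11.6 and 7.86 RPKM in susceptible controls and 6.35, 13.7 and 8.71 RPKM after submergence. Brassica_napus_newGene_636 was also listed at 0 throughout the resistant pool, and stood at 2.52, 3.59 and 0.734 RPKM in susceptible controls and 4.93, 9.08 and 13.9 RPKM after submergence. Brassica_napus_newGene_5915 was listed at 0 throughout the susceptible pool. In the resistant pool it stood at 13.2, 9.83 and 10.9 RPKM in controls and at 4.85, 3.49 and 6.32 RPKM after submergence, with no overlap. Brassica_napus_newGene_10044, listed at 0 in the same libraries, stood at 2.77, 5.58 and 4.38 RPKM and at 2.51, 4.79 and 3.70 RPKM, which overlap. These patterns chose the 4 genes and are a description.

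Pool differences recurred under both treatments, in comparisons that share no library. Genes that passed through a single pool are among them. The tests of both comparisons used the same spread per gene, so their calls are not independent. Of new genes higher in the resistant pool, 352 were so in both, 54.9% of those in controls and 67.2% of those after submergence. Of those lower, 168 were so in both, or 57.3% and 57.7%. For A and C genes the shares were 45.2% and 40.9% for higher, and 37.5% and 40.4% for lower genes. In opposite directions, 3 of 3583 new genes and 42 of 52294 A and C genes were called. The log2 differences correlated across new genes with r = 0.761, and with r = 0.623 across A and C genes, a description over genes.

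A response to submergence that differed between pools was called for 18 new genes (limma, adjusted p under 0.05). Of these, 10 had a higher change in the resistant pool, 0.279% against a background of 0.192%, and 8 a lower one, 0.223% against 0.141%. An unadjusted limma p under 0.05 was found for 522 of 3583 new genes and for 7472 of all 57391 genes tested. Of the 18, 9 were under 0.2 RPKM in all 6 libraries of a pool and 12 were under 1 RPKM, which leaves a fall there little room on this scale. Among the 10, 4 fell in the susceptible pool with no call in the resistant pool and 3 moved in opposite directions, up in resistant and down in susceptible seedlings. A further 2 rose in the resistant pool with no call in the susceptible pool, and 1 rose in both. Among the 8, 6 fell in the resistant pool with no call in the susceptible pool. With each of the 12 libraries left out in turn, the call was made for 4 to 29 new genes, fewest without the first and most without the second susceptible control. With the replicate number as a block, 7 of the 18 were called.

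Brassica_napus_newGene_2165 had the largest positive difference among those with a group mean of at least 5 RPKM. It stood at 2.77, 2.94 and 1.11 RPKM in resistant controls and at 35.0, 22.8 and 22.8 RPKM after submergence. Susceptible libraries were at 7.75, 6.07 and 9.64 RPKM and at 9.58, 12.7 and 11.6 RPKM. The control was thus lower and the submerged level higher in the resistant pool, and the difference in log2 change was 2.63 ± 0.36 (SE; limma adjusted p = 0.0226; 0.0576 with the replicate block). For newGene_10906 the difference was 2.16 ± 0.30 (SE; limma adjusted p = 0.0226; 0.0576 with the block), and its level was higher in the susceptible pool under both treatments. Brassica_napus_newGene_9966 was at 1.16, 1.33 and 1.20 RPKM in susceptible controls and at 8.00, 3.63 and 7.09 RPKM after submergence, and at 0.0317 RPKM or less in all resistant libraries (difference -1.67 ± 0.28, SE; limma adjusted p = 0.0381; 0.0756 with the block). Brassica_napus_newGene_12474 went from 7.10, 6.98 and 5.65 RPKM to 1.49, 1.24 and 1.88 RPKM in the resistant pool, and was at 0.131 RPKM or less in all susceptible libraries (difference -1.44 ± 0.18, SE; limma adjusted p = 0.0125). Both newGene_9966 and newGene_12474 passed the filter through a single pool. In the other pool their log2 change was -0.02 and -0.15, so each difference is close to the response of a single pool. newGene_12474 kept its call with the block. It lost it with a pseudocount of 0.1, at an adjusted p of 0.271 by limma, and without the first susceptible control, at 0.0566. The call of newGene_2165 was lost without the first resistant submerged library, the first or the third susceptible control, or the first susceptible submerged library, with adjusted p between 0.0506 and 0.075 by limma. That of newGene_10906 was lost without the third resistant control, the first or the third resistant submerged library, the first susceptible control or the first susceptible submerged library, with adjusted p between 0.0546 and 0.075 by limma. That of newGene_9966 was lost without any library other than the second of each susceptible group, with adjusted p between 0.0661 and 0.113 by limma, and also with a pseudocount of 0.1 (0.0697) and with no filter (0.0518).

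**Figure D5:**
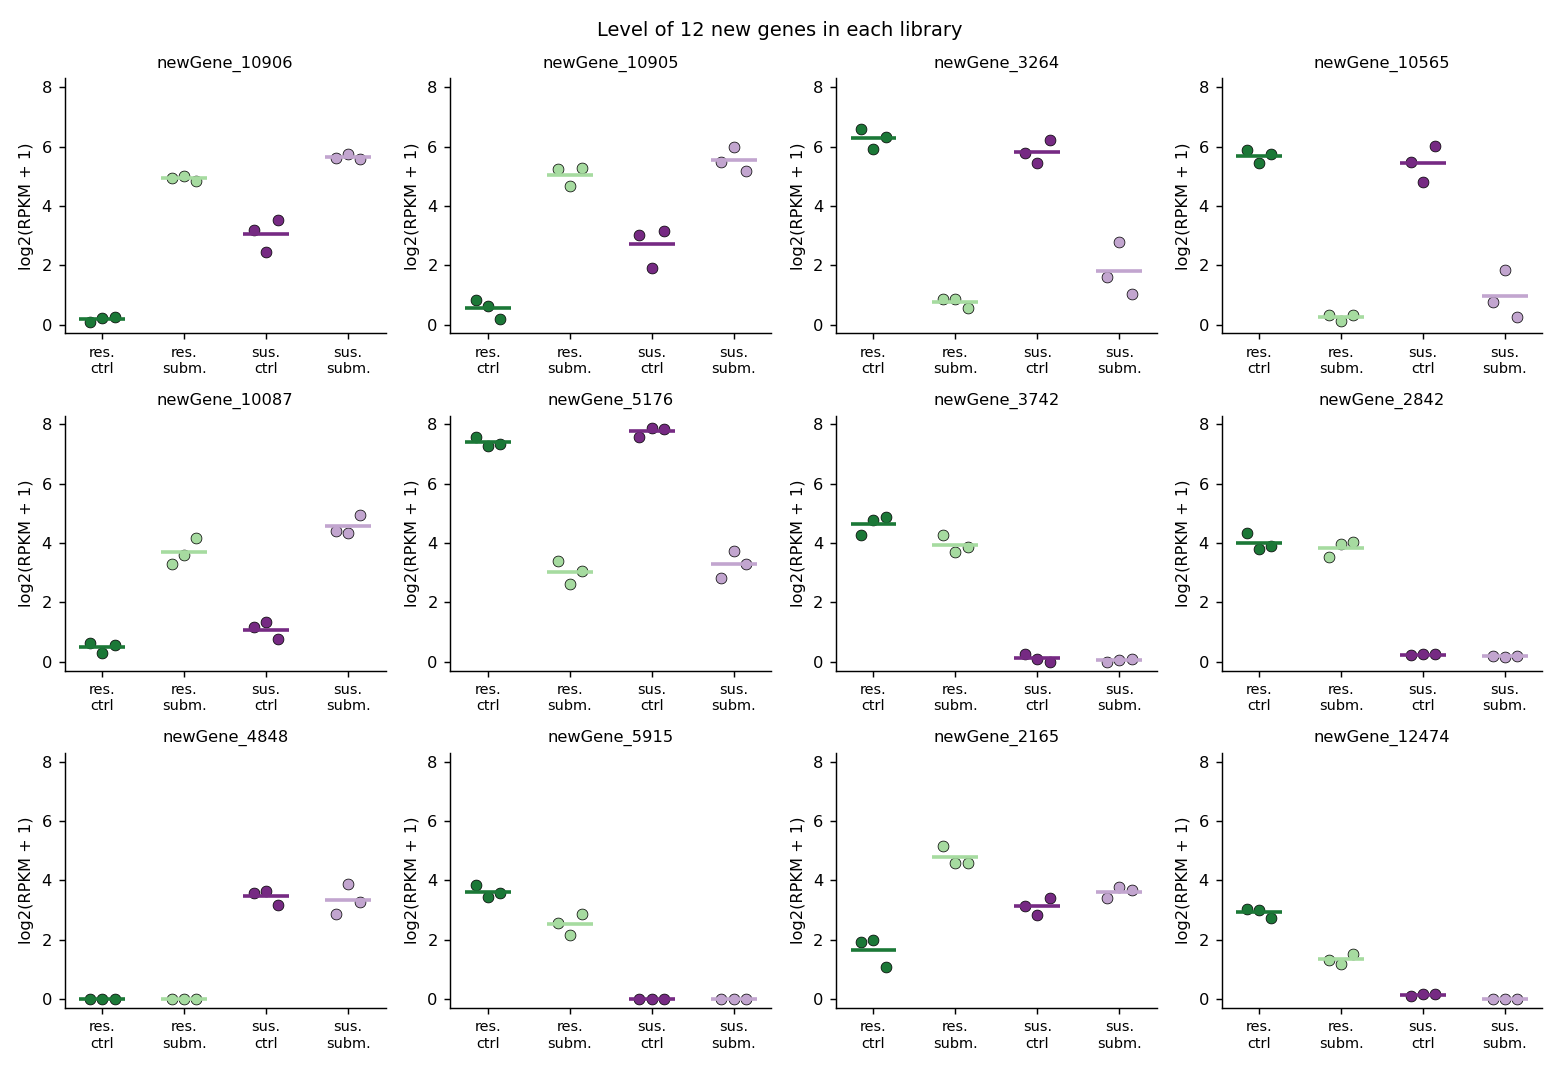
Points are libraries and bars group means of log2(RPKM + 1) for 12 new genes, with the 4 groups on the horizontal axis (resistant and susceptible, control and submerged). Rises and falls after submergence fill the panels from newGene_10906 to newGene_5176. In a whole pool, newGene_3742, newGene_2842, newGene_4848 and newGene_5915 lie at or near 0. The responses of newGene_2165 and newGene_12474 were called different between pools, and newGene_12474 lies near 0 in the susceptible pool.

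High correlations were more frequent between new genes with successive numbers than between those with distant numbers. Profiles over the 12 libraries correlated above 0.9 in 96 of 1103 pairs with successive numbers, or 8.70%. This was 5.68% for numbers 2 apart, 4.81% for numbers 10 apart and 1.17% for numbers 1000 apart. The median r was 0.270 for successive numbers and 0.111 for those 1000 apart. The 12 libraries fall into 4 groups, so these values describe shared group patterns. The pairs include newGene_10905 and newGene_10906, and also newGene_5915 with Brassica_napus_newGene_5916 (r = 0.961) and newGene_636 with Brassica_napus_newGene_637 (r = 0.988). newGene_5916 was at 0 in all susceptible libraries and newGene_637 in all resistant ones, like their partners, and these shared values add to r. Their means over the 12 libraries were only 0.924 and 0.987 RPKM. Other successive numbers ran in opposite directions, such as newGene_10087 and Brassica_napus_newGene_10086 (r = -0.813) and newGene_3742 and Brassica_napus_newGene_3741 (r = -0.752). The mean of newGene_3741 was only 0.605 RPKM. Of successive pairs with both genes called in the resistant response, 72.1% had the same direction, and of pairs 1000 apart, 71.7%. What the order of the numbers stands for is not given in the sources used here.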

How the data were processed

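Per the labels' protocols, poly(A) RNA was isolated on oligo(dT) beads, fragmented and sequenced in pairs on an Illumina instrument. The authors deposited RPKM values in a table of 109614 genes and 12 libraries. HISAT2 and StringTie are named in the submitters' processing notes. Not given in the sources used here are versions, settings, build, annotation and how new genes were defined. Since RPKM values are not reads, count models were left aside, and log2(RPKM + 1) was tested as deposited. The test was limma 3.58.1 (R 4.3.3), its prior variance following a trend, on all genes that reached 1 RPKM in 3 or more libraries. Group means of the 12 libraries were estimated together, leaving 8 residual degrees of freedom besides 3.345 from the prior. Tests were 2-sided, and p-values were adjusted by Benjamini-Hochberg over all 57391 genes at 0.05. The pseudocount makes fold changes of weak genes too small. The test was checked on simulated data. Shares, medians and correlations over new genes carry no p-value. Python 3.11.15 was used for these and for the plots.

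The members, lists and tests were chosen with earlier results of these data known. Named genes were the 2 largest called differences each way in each of 5 comparisons (a mean of at least 5 RPKM in the higher group and, except for the difference of responses, no overlap between groups), the 4 most abundant, the 4 least variable, the 2 highest in each pool among those at 0 in the other, and those nearest the filter; the neighbours by number (newGene_5916, newGene_637, newGene_10086 and newGene_3741) were named after their values were seen. Same-numbered replicates did not deviate together (18 correlations of deviations from group means, from -0.340 to 0.390, with 5 above 0.1), so the replicate block was an alternative only. The alternatives were another pseudocount, filters, scalings, the block, fits of the 2 groups at issue alone, and omission of each library. The labels call replicates biological; p-values measure the spread between these mixtures.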

Additional observations from a re-analysis of the deposited data

Results flagged for a closer look

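Of the named new genes, 4 had a log2 change after submergence that differed between the pools by the test of the difference itself (limma, adjusted p under 0.05). The change in the resistant minus that in the susceptible pool was 2.63 for Brassica_napus_newGene_2165 and 2.16 for Brassica_napus_newGene_10906. It was -1.67 for Brassica_napus_newGene_9966 and -1.44 for Brassica_napus_newGene_12474, which were both near 0 RPKM in a whole pool. In both, the difference is therefore close to the response of the other pool alone. With the replicate number as a block, the first 3 lost the call (limma adjusted p = 0.0576, 0.0576 and 0.0756) and the last kept it (0.0484). With a pseudocount of 0.1 the last, newGene_12474, lost it (limma adjusted p = 0.271). The call of newGene_9966 was lost in 13 of 17 alternatives.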

How the results depend on the processing

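Of 662 recomputed values of named genes, 621 kept their direction and side of the threshold, 41 lost the call and none reversed. That none reversed was largely fixed in advance. Apart from the 4 most abundant, these genes were chosen for a difference between groups. Other filters, the block, fits of the groups compared alone and omission of libraries outside a comparison also leave the log2 change as it was. A mean of at least 5 RPKM leaves 1112 new genes. In the resistant response 147 were then higher and 262 lower (13.2% and 23.6%, against 16.5% and 25.1% of A and C genes). In the susceptible response it was 149 and 260 (13.4% and 23.4%, against 16.4% and 26.9%). Between pools it was 118 and 80 in controls and 119 and 68 after submergence, and in the difference of responses 3 and 0. At least 1 RPKM in all 12 libraries, added after seeing the data, leaves 1765 new genes. In the same order of comparisons it gave 179 and 479, 184 and 430, 208 and 100, 180 and 91, and 3 and 0. The shares were 10.1% and 27.1% in the resistant response, against 13.0% and 26.2% of A and C genes. In the susceptible response they were 10.4% and 24.4%, against 13.1% and 28.1%. With this filter, 11.8% of new genes were higher and 5.67% lower between pools in controls, against 9.25% and 4.33% of A and C genes. After submergence it was 10.2% and 5.16%, against 10.1% and 3.97%. At a mean of 5 RPKM these shares were 10.6% and 7.19% against 8.89% and 5.27% in controls. After submergence they were 10.7% and 6.1% against 10.3% and 4.96%. Counting only genes that reached 1 RPKM in both pools, also added after seeing the data, gave 408 and 162 between pools in controls and 342 and 168 after submergence. Beside these counts of 0, limma gave 8 lower calls in the difference of responses with the usual filter. With no filter, 8695 new genes were tested. This gave 1001 and 507 between pools in controls, or 11.5% and 5.83%, against 7.85% and 3.64% of A and C genes. In the difference of responses it gave 29 and 25, or 0.33% and 0.29%, against 0.11% and 0.095%. For that difference a pseudocount of 0.1 gave 6 and 2, and the replicate block 4 and 3; the block moved no other count by over 1.5 times. Quantile normalization gave 609 lower in the resistant response and 533 in the susceptible response; median ratio scaling gave 628, and 587 with 494 higher. The causes were not tested.

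Leaving out each library gave 236 to 309 higher and 815 to 1067 lower in the resistant response, 259 to 311 and 759 to 919 in the susceptible response, 463 to 653 and 209 to 314 between pools in controls, 344 to 539 and 168 to 306 after submergence, and 2 to 18 and 2 to 11 in the difference of responses. In each omission, rises were called for a smaller share of new genes than of A and C genes in both pools. Falls were called for a larger share of new genes in the resistant pool and a smaller one in the susceptible pool. The larger share in the resistant pool reversed at a mean of 5 RPKM and with no filter. In each omission, pool differences and differences of responses were called for a larger share of new genes each way. The filter bears on both, as 12 of the 18 new genes with a called difference of responses were under 1 RPKM throughout a pool. At a mean of 5 RPKM, differences of responses were called for 0.27% of new and 0.37% of A and C genes. With 1 RPKM in all 12 libraries it was 0.17% and 0.242%, and with a pseudocount of 0.1 it was 0.223% and 0.231%. The detection difference was -392.3 to -351.8 for resistant and -339.2 to -300.2 for susceptible seedlings; it was -5.67 and -25 for genes above 0, -204.7 and -103.7 at 5 RPKM, and -220 and -149 with median ratio scaling. The median change of new genes minus that of A and C genes was -0.087 in the resistant pool (-0.102 to -0.047 by library, -0.157 with a pseudocount of 0.1, 0.002 with no filter and -0.135 at a mean of 5 RPKM) and 0.007 in the susceptible pool (-0.034 to 0.052).

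Absolute depth is unknown, so neither counting error nor the lowest level a listed 0 allows can be given, and this bears most on the 1539 new genes under 2 RPKM.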
